A study of Rattus norvegicus with 8 samples.

Results

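Myc and 4 genes of nucleolar growth, Gnl3, Ncl, Npm1 and Nolc1, were followed through loss and return of load in the rat soleus. Probe sets were chosen by gene symbol, with no filter on signal, and each is described apart. The rule found 10 probe sets for 4 of the 5 genes, out of 8740 probe sets and 4736 named genes in all: 2 for Myc, 3 for Gnl3, 2 for Ncl and 3 for Nolc1. The 2 probe sets that list Npm1 also list the pseudogene Npm1-ps9, so Npm1 has no probe set of its own and no values are given for it. The symbols make the rule, but the genes were put together from results of the 3 comparisons below, so the members' values and calls are given as a description, with no p-value.

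The soleus is a slow postural muscle of the hindlimb. All rats were female, and the sources used here give neither strain nor age. Control rats (3 pools) were active in their cages for 12 h. Unloaded rats (3 pools) had their hindlimbs relieved of load over 12 h. In walked rats (2 pools) the same unloading was followed at once by treadmill walking, 2 h in all, given as 30 min bouts that alternated with 30 min in the cage over 4 h. Walked muscle therefore also differs from unloaded muscle in clock time and in cage activity between bouts, which cannot be told apart from walking. Each pool combined soleus RNA of 8 to 10 rats and was measured on 1 Affymetrix array, so the spread given here is between pools.

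Myc is a transcription factor that pairs with Max, binds the E-box CACGTG and raises transcription of genes for cell growth, among them genes for making ribosomes. Ribosomes are assembled in the nucleolus: ribosomal RNA is transcribed and cut there, and nucleolar proteins such as nucleolin (Ncl), nucleophosmin (Npm1), nucleostemin (Gnl3) and Nopp140 (Nolc1) take part. Skeletal muscle makes more ribosomes when load makes it grow, and Myc mRNA is known to respond to loading. In whole muscle, a change in the number of cells of a type and a change in RNA per cell cannot be told apart.

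The promoters of the measured genes are shown because these genes are textbook targets of Myc. They were taken from RefSeq (GRCr8), which gave 4 of the 5 genes, Npm1 included, and no entry for Myc. Each runs 5′ to 3′ on the gene's strand, from 250 bases before the start to 50 bases from it. Capitals mark CACGTG and TGACG, a core of the cAMP response element, searched on both strands; CACGTG reads the same on both, and the motifs do not overlap here. Gnl3 lies at chr16:6219733-6220032 (minus strand), Ncl at chr9:94456034-94456333 (minus strand) and Nolc1 at chr1:254870109-254870408 (plus strand).
Gnl3: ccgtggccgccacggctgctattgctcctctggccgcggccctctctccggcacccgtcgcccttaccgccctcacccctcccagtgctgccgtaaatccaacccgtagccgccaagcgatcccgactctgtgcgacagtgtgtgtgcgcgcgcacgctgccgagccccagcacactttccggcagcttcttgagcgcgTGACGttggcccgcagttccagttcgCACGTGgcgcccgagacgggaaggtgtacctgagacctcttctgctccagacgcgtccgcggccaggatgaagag
Ncl: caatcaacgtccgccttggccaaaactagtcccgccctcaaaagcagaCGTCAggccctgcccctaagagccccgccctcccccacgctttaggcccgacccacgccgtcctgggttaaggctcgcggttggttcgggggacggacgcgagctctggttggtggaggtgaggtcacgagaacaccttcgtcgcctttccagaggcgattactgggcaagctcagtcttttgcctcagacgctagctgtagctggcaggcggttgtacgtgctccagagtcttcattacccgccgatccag
Nolc1: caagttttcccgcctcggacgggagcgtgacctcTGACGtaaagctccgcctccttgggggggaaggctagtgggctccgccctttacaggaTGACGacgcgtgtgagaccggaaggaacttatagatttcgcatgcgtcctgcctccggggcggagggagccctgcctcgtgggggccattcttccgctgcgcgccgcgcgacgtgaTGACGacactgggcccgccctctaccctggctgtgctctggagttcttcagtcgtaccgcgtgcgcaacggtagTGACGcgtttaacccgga
The Gnl3 window holds 1 CACGTG, 25 to 20 bases before the start, and 1 TGACG, 51 to 47 bases before it. The Ncl window holds 1 TGACG, on the opposite strand, and the Nolc1 window holds 4. These letters are not in the Npm1 window, and CACGTG is not in those of Ncl and Nolc1. Of 33469 RefSeq promoters of this length, 6.4% hold CACGTG, 21.2% hold TGACG and 2.0% hold both. A match is a description of the letters and says nothing of binding.

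The deposited arrays were alike in scale, with a median signal between 37.1 and 42.4. Slow-fibre markers of the soleus were present: Myh7, the slow myosin heavy chain, had means of 5326 in control, 6312 in unloaded and 7409 in walked soleus. The 8 measured slow-fibre markers (of 11) summed to 25691 to 28132 in control, 28759 to 40865 in unloaded and 36883 to 43753 in walked arrays. They were Myh7, Tnni1, Myl2, Myl3, Atp2a2, Ckm, Acta1 and Des, and Ckm, Acta1 and Des are not particular to slow fibres. The sum of 7 cycling-cell markers (of 10) was 611 to 790 in control, 550 to 622 in unloaded and 885 to 899 in walked arrays. In it Pcna, a clamp of DNA polymerase, had a mean of 240 in control, 243 in unloaded and 515 in walked soleus. Walked minus unloaded, 3 of the 7 were above 0 (Pcna 1.08, Ccnd1 0.48 and Mcm7 0.34) and 4 below (Top2a -0.16, Ccnb1 -0.19, Cdk1 -0.27 and Mcm6 -0.60). The 2 measured satellite-cell markers (Myod1, Myog, of 5) summed to 437 to 484 in control, 291 to 399 in unloaded and 312 to 356 in walked arrays. The 6 measured leukocyte markers (of 10) summed to 503 to 601 in control, 523 to 665 in unloaded and 539 to 619 in walked arrays. Smooth muscle markers (4 of 5) summed to 1678 to 2358 in control, 1071 to 1384 in unloaded and 1447 to 1732 in walked arrays, and endothelial markers (4 of 7) to 301 to 390, 290 to 312 and 286 to 321. Fibroblast markers (6 of 6) summed to 6612 to 9744 in control, 7652 to 11921 in unloaded and 7157 to 7227 in walked arrays. Of them Dcn, the matrix proteoglycan decorin, rose by 1.83 ± 0.20 with unloading (called on 3 of 4 probe sets) and was called at 1.51 ± 0.22 walked against control (2 of 4). Unloaded minus control, 4 of the 6 were below 0 (Col1a1 -0.19, Col1a2 -0.17, Fn1 -0.15 and Col3a1 -0.03). Walked minus control 4 were also below 0, and walked minus unloaded all 6 were. Adipocyte markers (4 of 5) summed to 1215 to 1533 in control, 1175 to 1449 in unloaded and 1131 to 1476 in walked arrays. Among them Fabp4, a fatty acid-binding protein, rose by 1.52 ± 0.21 with unloading, while the other 3 were below 0 (Plin1 -0.18, Lep -0.28 and Cfd -0.43). The sums of Schwann cell markers (4 of 5) were 443 to 487, 389 to 438 and 420 to 427. On the 1 probe set used per gene, no slow-fibre or cycling-cell marker was called in any comparison (limma). Of the 4 probe sets of Atp2a2, a calcium pump of slow fibres, 1 was called walked against control. Their differences ran from -0.40 to 0.21, and the highest, on the probe set used, was not the called one. Walked against control, 7 of the 8 slow-fibre markers were higher at an unadjusted p under 0.05, as were 296 of all 4736 genes. The part of the slow-fibre, Pcna, Dcn, Fabp4 and smooth muscle signals in the values below was not tested.

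Myc was read by 2 probe sets designed on the same mRNA, and they differed. On Y00396mRNA_at the signal was 3.7, 4.9 and 6.8 in the 3 control pools, 1.9, 4.2 and 4.9 in the unloaded pools, and 28.4 and 31.1 in the walked pools. Both walked pools lay above every other array, and control and unloaded pools overlapped. On Y00396mRNA_g_at the signal was 26.4, 49.3 and 40.4 in control, 19.2, 26.9 and 24.1 in unloaded and 37.8 and 34.1 in walked pools. Here the walked pools lay above the unloaded pools and within the range of the control pools, and control pool 1 lay within the range of the unloaded pools.

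Differences are of log2 signal from a linear model fitted to all 8740 probe sets (limma), with the standard error (SE) of the fit. The words called, rose and fell are kept for an adjusted p under 0.05 (Benjamini-Hochberg, over all probe sets). Walked minus unloaded, Y00396mRNA_at rose by 2.76 ± 0.22, which is 6.78-fold. It was also called against control (2.53 ± 0.22, or 5.78-fold), and unloaded minus control it had -0.23 ± 0.20. The size of the Myc rise depends on how low signals are treated, since control pool 1 and unloaded pool 1 lay under the floor of 4.10 at which signals were set. Walked minus unloaded was 1.37 with a floor at the 25th percentile, which all control and unloaded pools were under, and 3.13 with no floor. The other Myc probe set, Y00396mRNA_g_at, had 0.63 ± 0.33 walked minus unloaded, -0.06 ± 0.33 walked minus control and -0.69 ± 0.29 unloaded minus control, and was called in no comparison.

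**Figure D1:**
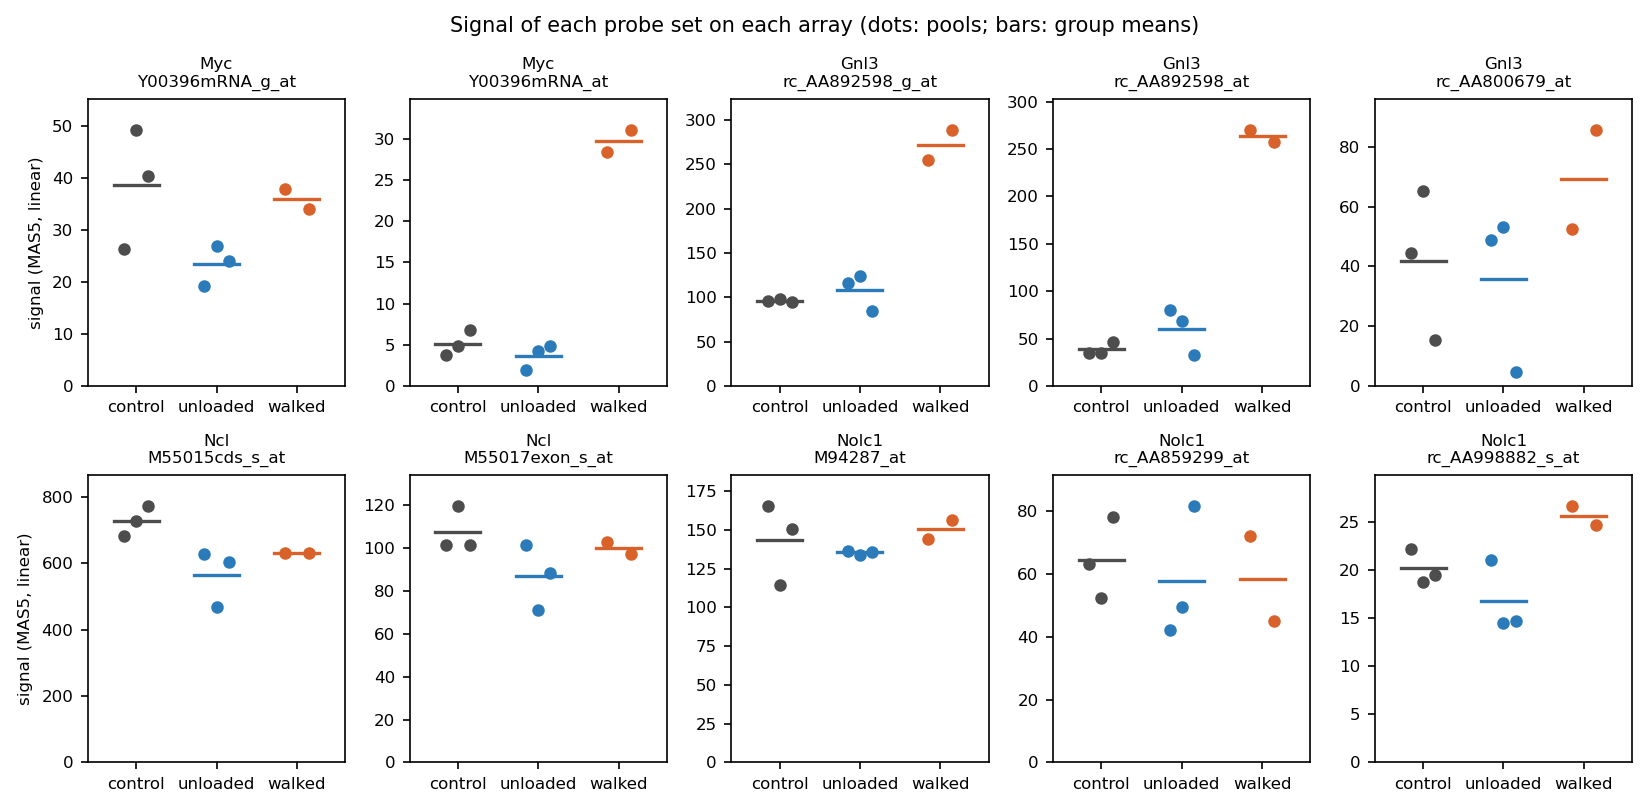
Signal on a linear scale (vertical axes, each from 0) of the 10 probe sets in control, unloaded and walked soleus; each dot is 1 pool of rats and each bar is a group mean. Walked pools stand above all other arrays on Y00396mRNA_at of Myc (28.4 and 31.1) and on rc_AA892598_g_at (254.5 and 288.9) and rc_AA892598_at (270.4 and 257.1) of Gnl3.

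Gnl3, nucleostemin, is a nucleolar GTP-binding protein that is abundant in growing and stem cells. On rc_AA892598_g_at its signal was 95.6, 97.8 and 94.9 in control, 116.1, 124.3 and 84.2 in unloaded and 254.5 and 288.9 in walked pools. On rc_AA892598_at, designed on the same transcript sequence, it was 34.8, 34.6 and 46.0 in control, 80.0, 68.2 and 33.1 in unloaded and 270.4 and 257.1 in walked pools. On both, every walked pool lay above every other array, while unloaded pool 3 was the lowest of the 8 arrays and the other unloaded pools lay above all controls. The third probe set, rc_AA800679_at, had 44.6, 65.3 and 15.5 in control, 48.9, 53.2 and 4.7 in unloaded and 52.5 and 85.7 in walked pools. On it the groups overlapped, and control pool 3 and unloaded pool 3 were low.

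With walking, Gnl3 rose by 1.35 ± 0.17 (2.54-fold) on rc_AA892598_g_at, from a mean of 108 ± 21.2 (SD, n = 3) to 272 ± 24.3 (n = 2). It rose by 2.22 ± 0.38 (4.67-fold) on rc_AA892598_at, from 60.4 ± 24.4 to 264 ± 9.40. Against control the same probe sets were called too, at 1.50 ± 0.17 and 2.79 ± 0.38. These 2 probe sets share a source sequence, so their calls are not independent of each other. The third, rc_AA800679_at, had 1.54 ± 1.18 walked minus unloaded and 0.92 ± 1.18 walked minus control, and was not called. Leaving out 1 array gave it 0.40 to 2.15 and 0.32 to 1.35 in the same order. Unloaded minus control, rc_AA892598_g_at had 0.15 ± 0.15 and rc_AA892598_at 0.57 ± 0.34, neither called. On rc_AA800679_at the unloaded minus control difference of -0.63 ± 1.05 rested on unloaded pool 3 and was 0.52 without it.

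The calls of Gnl3 depended on single arrays. Walked minus unloaded, rc_AA892598_g_at kept its call in 6 of 8 fits that left out 1 array and lost it without walked pool 1 or walked pool 2, with differences of 1.18 to 1.46. The call of rc_AA892598_at was kept in 1 of 8 such fits, the one without unloaded pool 3, with differences of 1.84 to 2.47. It was also lost with the floor at the 25th percentile and without a trend, where the difference stayed at 2.22. Against control, rc_AA892598_at lost its call without any 1 control or walked pool (2.72 to 2.93 over the 8 fits), and rc_AA892598_g_at without control pool 2 or 3 or either walked pool (1.41 to 1.59). The Myc call of Y00396mRNA_at was kept in 8 of 8 such fits in both comparisons, at 2.70 to 2.84 and 2.37 to 2.73. A fit with a lone walked pool assumes that it varies like the other groups.

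Ncl, nucleolin, binds ribosomal RNA precursors and is one of the most abundant nucleolar proteins. On M55015cds_s_at its signal was 680.2, 725.9 and 771.5 in control, 626.8, 467.3 and 602.9 in unloaded and 629.1 and 630.3 in walked pools. All controls lay above all unloaded and walked pools, and both walked pools lay just above the highest unloaded pool. On M55017exon_s_at it was 101.2, 119.5 and 101.6 in control, 101.3, 71.2 and 88.2 in unloaded and 102.6 and 97.2 in walked pools. The means had the same order on both, highest in control, then walked, then unloaded, but the walked and unloaded groups overlapped on the second, as did each of them with control.

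No Ncl probe set was called in any comparison. Unloaded minus control was -0.37 ± 0.12 on M55015cds_s_at and -0.32 ± 0.15 on M55017exon_s_at. Walked minus unloaded was 0.17 ± 0.13 and 0.22 ± 0.17, and walked minus control -0.20 ± 0.13 and -0.10 ± 0.17. A missed threshold does not show that Ncl was the same in the 3 groups.

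Nolc1, known as Nopp140, carries small nucleolar ribonucleoproteins and binds RNA polymerase I. On M94287_at its signal was 165.4, 114.7 and 150.6 in control, 136.6, 133.9 and 136.1 in unloaded and 144.4 and 156.6 in walked pools. The walked pools lay above the unloaded pools, and both groups lay within the range of the controls. On rc_AA998882_s_at it was 22.2, 18.7 and 19.5 in control, 21.0, 14.5 and 14.7 in unloaded and 26.6 and 24.6 in walked pools. Both walked pools lay above every other array on this dim probe set. On rc_AA859299_at the pools ranged from 52.3 to 78.2 in control, 42.3 to 81.6 in unloaded and 45.0 to 72.0 in walked soleus, and the groups overlapped.

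No Nolc1 probe set was called. Walked minus unloaded was 0.15 ± 0.16 on M94287_at, 0.64 ± 0.27 on rc_AA998882_s_at and 0.04 ± 0.36 on rc_AA859299_at. Unloaded minus control was -0.07 ± 0.14, -0.28 ± 0.25 and -0.20 ± 0.32 in the same order, and walked minus control 0.09 ± 0.16, 0.35 ± 0.27 and -0.16 ± 0.36. Each of these values on M94287_at and rc_AA859299_at was smaller than its SE.

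After unloading, the members as a group held 0 calls of 10 probe sets (limma), where 2.61% of all probe sets were called. At an unadjusted p under 0.05 there was 1 of 10, Ncl on M55015cds_s_at, where 15.7% of all probe sets passed. The same probe set was the 1 of 10 whose unloaded pools lay wholly below the controls, as they did on 12.8% of all probe sets. The median difference of the members was -0.26, with 8 of 10 below 0 and 2 above, where 40.7% of all probe sets were above 0. The median over all probe sets was -0.07.

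After walking, 3 of 10 probe sets were called against unloaded soleus, all higher, where 1.91% of all probe sets were called and 1.44% were called higher. The walked pools lay wholly above the unloaded pools on 7 of 10 (12.4% of all probe sets). All 10 differences were above 0, where 45.0% of all probe sets were above 0. The members' differences ran from 0.04 to 2.76 with a median of 0.63, and the median over all probe sets was -0.02. Walked against control again gave 3 of 10 called, all higher, where 2.47% of all were called and 1.42% were called higher. In that comparison 4 of 10 had walked pools wholly above control (13.1% of all), 1 had them wholly below (22.5% of all), and the median was 0.22 against -0.08 over all probe sets. The comparisons share arrays, the 3 calls are those of 1 Myc and 2 Gnl3 probe sets in both, and the members were selected on such values, so nothing is read from these shares.

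**Figure D2:**
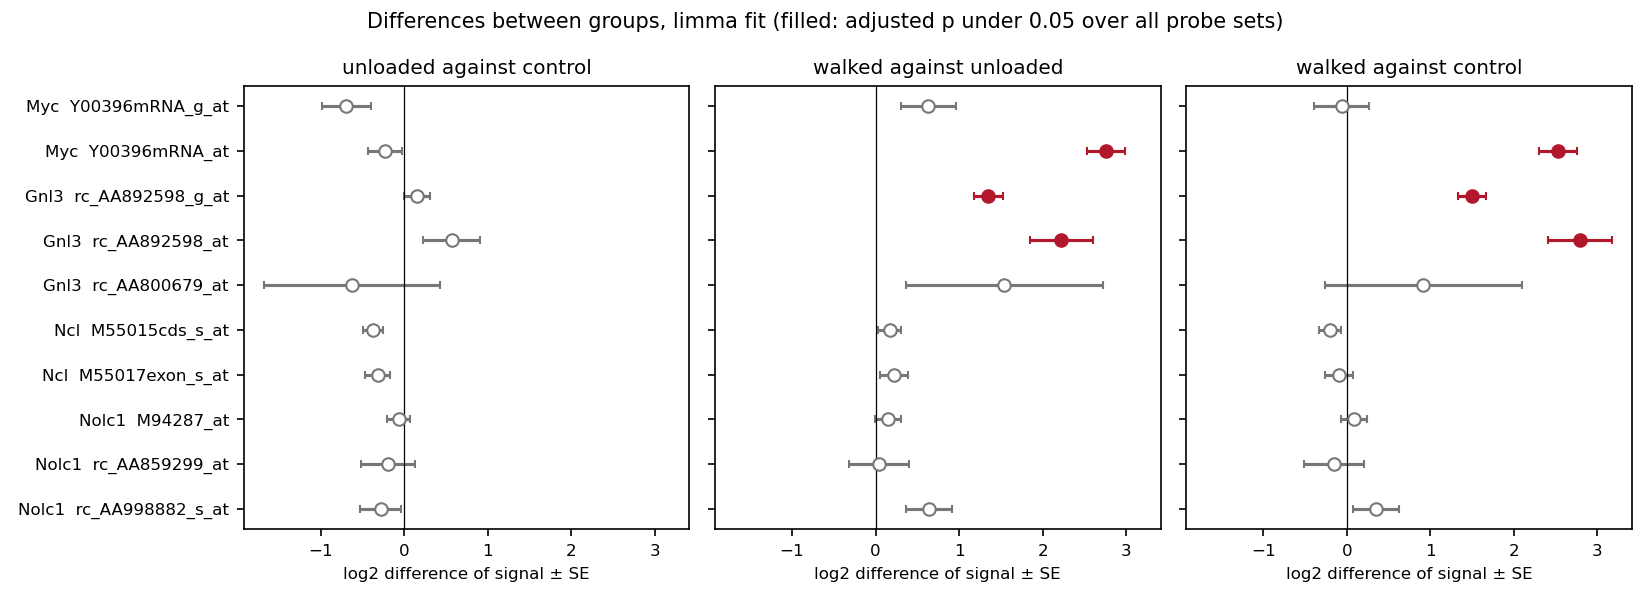
Difference of log2 signal (horizontal axes) with its SE for the 10 probe sets (rows) in the 3 comparisons; filled points were called over all probe sets. The called points are Y00396mRNA_at of Myc and rc_AA892598_g_at and rc_AA892598_at of Gnl3 in the panels with walked soleus, between 1.35 and 2.79, and no point is filled for unloaded against control.

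Other genes of the Myc network and of ribosome production were taken from 6 lists, with 1 probe set per gene. Of the partners and antagonists of Myc, 12 of 25 were measured, and walked against unloaded limma called 0 of them (0 higher and 1 lower at an unadjusted p under 0.05). Max, the obligate partner of Myc, had a mean of 60.5 in control, 40.5 in unloaded and 50 in walked soleus on the probe set used. Its 2 probe sets differed in sign, with -0.60 and 0.25 unloaded minus control and -0.28 and 0.59 walked minus control, and neither was called. In unloaded against control 1 of the 12 was called, the kinase Pim3, which rose by 0.66 ± 0.11 from 175 to 276. That count was 1 without control pool 2 and 0 without any other array. Walked against control had 0 calls (1 higher and 3 lower unadjusted). Over all genes, 1.54% were called higher and 1.27% lower in unloaded against control, 1.39% and 0.612% in walked against unloaded, and 1.33% and 1.16% in walked against control. At an unadjusted p under 0.05, unloaded against control had 281 higher and 457 lower of all 4736 genes. Walked against unloaded had 258 and 427, and walked against control 296 and 613.

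Of 11 measured genes for transcription by RNA polymerase I (of 26), limma called 0 in each comparison. At an unadjusted p under 0.05, 0 passed in unloaded against control, 2 were higher and 2 lower in walked against unloaded, and 1 was higher and 1 lower in walked against control. Their median walked minus unloaded was 0.00, where it was -0.02 over all genes. Among them Top1, a DNA topoisomerase, had the value nearest to a call, 1.05 ± 0.20 walked minus control (means 85.0 and 174, limma adjusted p = 0.055). Polr1b, a subunit of RNA polymerase I, was next there, at -0.63 ± 0.14 (limma adjusted p = 0.072), and had -0.57 ± 0.14 walked minus unloaded. Walked against control, 1 gene of the list was called higher after quantile normalization, with no floor, and with the filters at the 40th and the 60th percentile of mean signal. Up to 1 was called lower there over the alternatives other than leaving out an array. Of 6 measured genes for processing and assembly (of 67), limma called 0 in each comparison. Unadjusted, 1 was lower in unloaded against control, 1 higher in walked against unloaded and 1 lower in walked against control. Among them Nop58, a core protein of small nucleolar ribonucleoproteins, had 0.66 ± 0.27 walked minus unloaded. In that comparison 4 of the 6 were below 0, with a median of -0.03. The lower gene walked against control was Imp3, at -0.44 ± 0.13. With so few of the 67 measured, that list describes little of ribosome assembly.

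Among 27 measured growth genes known as Myc targets (of 47), 2 rose with walking against unloading: Slc3a2, the heavy chain of amino acid transporters, by 1.20 ± 0.18 from a mean of 461 to 1037, and the mitochondrial chaperonin Hspd1 by 0.54 ± 0.09 from 662 to 959. Hspd1 was called on 1 of 2 probe sets. Their median was 0.02. In unloaded against control the cap-binding factor Eif4e rose by 1.46 ± 0.12 and the transferrin receptor Tfrc by 3.04 ± 0.50 from a dim control mean of 8.90. Odc1, the first enzyme of polyamine synthesis, fell by 0.85 ± 0.15 (log2) in the same comparison, on 1 of 2 probe sets. Walked against control called 3 higher, Eif4e (1.41 ± 0.13), Tfrc (3.85 ± 0.56) and Hspe1 (0.57 ± 0.09), the partner of Hspd1. With any probe set of a gene counted, unloaded against control called 4 higher instead of 2, with Hspe1 and Prdx3 each called on 1 of 2 probe sets. Counted in that way, walked against control called 4 higher instead of 3, with Slc3a2 called on 1 of 2 probe sets. These counts depended on single arrays. The 2 called higher with unloading became 4 without unloaded pool 3 and 1 without any other array. The 1 called lower became 2 without unloaded pool 3 and 0 without any control pool or unloaded pool 1 or 2. The 2 called with walking against unloading stayed 2 without control pool 3, and were 0 or 1 without any other array. The 3 called against control were 0 without either walked pool, and stayed 3 only without unloaded pool 3.

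Of 13 measured genes listed from general knowledge as repressed by Myc (of 20), 1 rose in walked against unloaded, the MAP kinase phosphatase Dusp1 (2.39 ± 0.22, on all 3 probe sets). That count went down to 0 over the alternatives other than leaving out an array. Dusp1 is an immediate early gene, and with unloading it fell by 1.65 ± 0.20, called on 2 of 3 probe sets (0 genes of the list fell without control pool 1 or control pool 3). Gadd45a, a growth arrest gene, rose with unloading (1.27 ± 0.20, called on 1 of 4 probe sets, with 1.27 to 1.68 over the 4), and the count of 1 stayed only without unloaded pool 2 or unloaded pool 3. Walked against control had 0 calls (3 higher unadjusted) on the probe sets used, where Dusp1 was called on 1 of its 3 probe sets. The list had 1 call there after quantile normalization, and 1 without control pool 1 or unloaded pool 1. The most under any alternative was 2. Of 7 measured genes of p53 and nucleolar surveillance (of 12), the ribosomal proteins Rps27l (0.73 ± 0.05) and Rpl23 (0.54 ± 0.09, on 1 of 2 probe sets) rose with unloading. Of these 2 calls 1 was left after quantile normalization and without any 1 array. Rps27l fell by 0.55 ± 0.06 with walking, with 0 genes called lower without walked pool 1. Walked against control had 0 calls (4 higher unadjusted), and 1 called higher without control pool 1. Over the alternatives other than leaving out an array, up to 3 were called higher there, and up to 2 walked against unloaded. Mdm2, the ubiquitin ligase of p53, had 0.96 ± 0.21 walked minus unloaded and was not called.

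**Figure D3:**
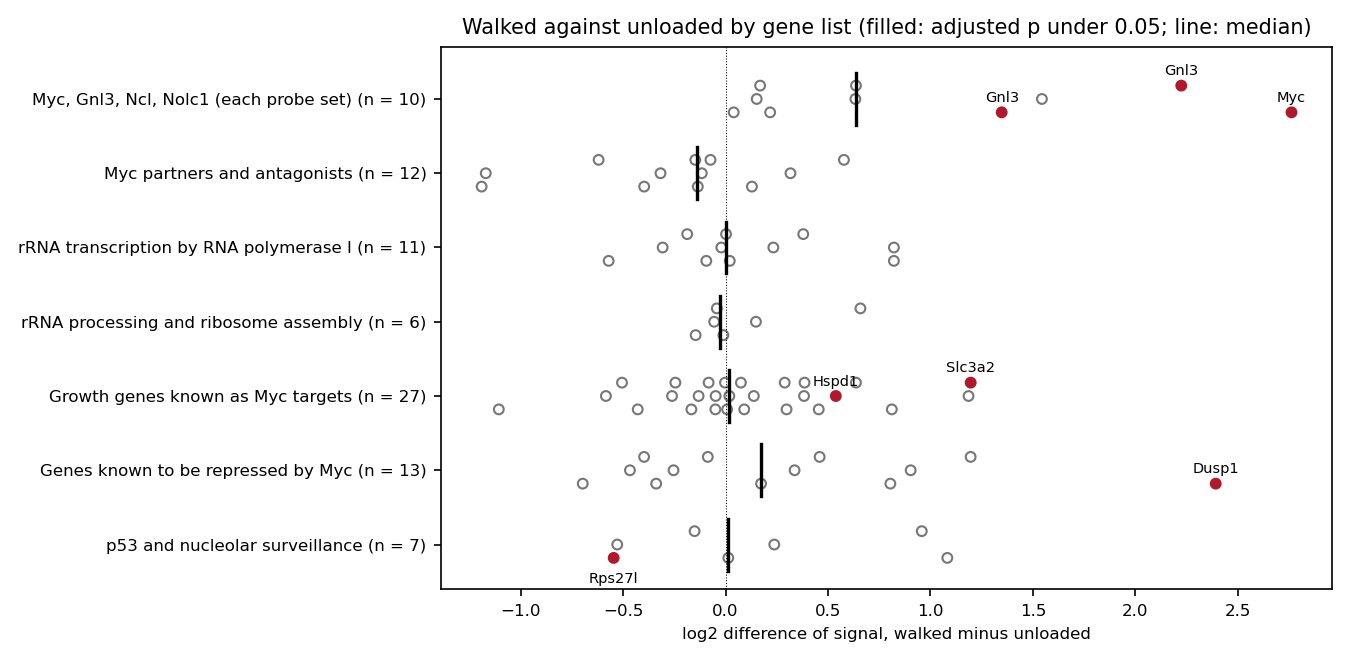
Difference of log2 signal, walked minus unloaded (horizontal axis), for the members (each probe set) and for 6 gene lists (1 probe set per gene); filled points were called and lines are medians. Medians of the lists lie between -0.14 and 0.17, and the called list genes are Slc3a2, Hspd1, Dusp1 and Rps27l.

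For each gene's probe set of highest mean signal, the 4 most alike of 3149 other genes were found by Pearson's r of log2 signal over the 8 arrays, which share their groups. Gnl3 was most like Tcp11l2 (0.96), the transcription factor Klf4 (0.93), the RNA-binding protein Hnrnpu (0.93) and the RNA helicase Ddx3x (0.92). Tcp11l2 had means of 436 in control, 498 in unloaded and 1860 in walked soleus, and Klf4 had 56.5, 40.6 and 227. Myc, on Y00396mRNA_g_at, was most like Olfm1 (0.94), Ppp1r13l (0.91), Lemd2 (0.90) and Ppp1r10 (0.87). Ncl was most like Tbc1d2b (0.97), Slc16a6 (0.95), Myl6b (0.94) and Apoc1 (0.94), and Nolc1 most like Gja1 (0.95), Tnni3 (0.93), Kng2 (0.86) and Smc3 (0.86). With 8 arrays and this many candidates, high values of r are found for any gene.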

How the data were processed

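Soleus RNA pools of control (3), unloaded (3) and walked (2) rats were measured on 8 one-colour arrays. The authors made the signal intensity of each probe set with MAS5, per the submitters' processing notes, and deposited it unlogged. The sources used here give no version, scaling target or detection call. MAS5 subtracts mismatch or background estimates, so low signals are noisy. The number of arrays limits the precision.

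Arrays were brought to the same 2% trimmed mean, a floor was set at the 10th percentile of the scaled signals (4.10), and log2 was taken. Limma 3.58.1 (R 4.3.3; lmFit, eBayes with a trend) was fitted to all 8740 probe sets, 8 arrays and 3 groups, with 5 residual degrees of freedom, and p-values were adjusted by Benjamini-Hochberg. It was tested on simulated data with changes set only in brighter probe sets. That test did not cover signals as low as those of the 2 Myc probe sets. Printed signals are as deposited. For a single probe set the smallest exact permutation p is 0.1 with 3 against 3 pools. It is larger in the comparisons with only 2 walked pools.

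Gene symbols came from the platform annotation, updated through Entrez IDs to RefSeq (GRCr8): 7006 probe sets had 1 symbol, 308 several and 1426 none, and 6985 of the 7006 matched. List genes used the probe set of highest mean log2 signal. Members and lists were chosen with earlier results of these data known. Named list genes are up to 4 called per list and comparison. Max, Top1, Polr1b, Prdx3, Nop58, Imp3, Mdm2 and the marker genes named were added after their values were seen. Pools of the same number were checked for shared deviations and did not pair: correlations were -0.03 to 0.04, and -0.04 to 0.05 for pools of different number.

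Alternatives were no rescaling, quantile normalization, other floors, filters at the 40th and 60th percentile of mean signal, no trend, only both groups' arrays, the pool number as a block, and leaving out each array.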

Additional observations from a re-analysis of the deposited data

How the results depend on the processing

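Of 489 values of single probe sets of Myc, Gnl3, Ncl and Nolc1 under the alternatives, 451 kept their direction and their side of the threshold, 27 lost a call, 11 changed sign and 0 gained a call. Of the 27, 1 was of Myc (walked against control, with only the arrays of both groups) and the others of Gnl3. Walked against unloaded, 1 of the 10 probe sets was called with only the arrays of both groups. With the pool number as a replicate block it was 1 of 10 in each comparison with walked arrays, that of Myc. Without 1 array, 1 to 3 were called in each. Of all probe sets, unloaded against control called 228 (383 and 406 above the 40th and 60th percentile of mean signal, 128 with only both groups' arrays, 78 with the block, 84 to 239 without 1 array). Walked against unloaded called 167 (93, 58 and 103 to 158 under the last 3). Walked against control called 216 (476, 553, 102, 16 and 50 to 224 in the same order, and 105 without a trend). Both filters leave out Y00396mRNA_at of Myc and rc_AA998882_s_at of Nolc1, and the 60th percentile also Y00396mRNA_g_at, rc_AA800679_at and rc_AA859299_at.

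The 11 sign changes were in values that were not called. Walked minus control, Y00396mRNA_g_at of Myc was 0.042 after quantile normalization and -0.31 to 0.14 without 1 array, and rc_AA859299_at of Nolc1 was 0.055 with the block and -0.50 to 0.18 without 1 array. M94287_at of Nolc1 was -0.22 to 0.045 unloaded minus control and -0.068 to 0.20 walked minus control, rc_AA859299_at -0.30 to 0.38 walked minus unloaded, and rc_AA800679_at of Gnl3 -1.23 to 0.52 unloaded minus control, each without 1 array. The cause was not tested. For Y00396mRNA_at of Myc, the floor set the size of the difference. Counts of called genes in the lists reached 6 higher (growth genes, walked against control, above the 40th percentile).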
